A study of Caenorhabditis elegans with 6 samples.

Results

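The 46 genes described here encode the contractile apparatus of Caenorhabditis elegans muscle and the complexes that fasten it to the cell membrane. They were taken from a list of symbols and looked up in a count table of 46748 genes, and 46 of 46 were found. By role they comprise 9 thick filament genes, 4 actins, 11 genes of the troponin and tropomyosin switch, 4 regulators of actin filaments, 5 giant or immunoglobulin-repeat proteins and 13 attachment genes. By tissue, 9 are isoforms known from body wall muscle and 5 are isoforms known from pharyngeal muscle. The other 32 are expressed in both or were not assigned to one.

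Libraries of total RNA from whole worms came from 2 strains with 3 replicates each, which the labels call independent. The knockout strain, VDL786, has the allele crh-1(syb385), labelled as a knockout of the circular RNA from crh-1, which encodes the worm's CREB transcription factor. The wild type was N2. Both strains were grown on E. coli OP50 at 20 °C, moved as L4 larvae to plates with 25 µM FUdR, which blocks DNA synthesis and so prevents progeny, and harvested on day 1 of adulthood. No muscle was dissected, so in these bulk samples fewer muscle cells and less RNA per muscle cell cannot be told apart.

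A muscle contracts when myosin heads on thick filaments pull on thin filaments of actin, and calcium binding to troponin moves tropomyosin aside to permit this. In the worm's body wall the thin filaments are anchored at dense bodies and the thick filaments at M-lines, and integrin complexes at both sites tie them through the membrane to perlecan in the basement membrane. The body wall muscles drive locomotion, while the pharynx is a separate pump with its own myosin heavy chains and troponins. Loss of several of the genes below paralyses the worm (the unc genes) or arrests embryos while they elongate (the pat genes).

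Total counts per library ran from 38974777 to 47444165 in knockout and from 40462731 to 42116982 in wild type. Knockout replicate 2 stood apart from the other libraries, with 58.5% of its counts in rRNA genes against 22.9% to 36.4% elsewhere, which left it 14188050 protein-coding counts. Each of the 46 genes passed the filter on low counts and was among the 14354 genes tested, and the smallest count of any of them in any library was 40. The 46 genes took 1.15%, 1.49% and 0.610% of the protein-coding counts in knockout replicates 1 to 3, against 0.910%, 0.955% and 0.823% in wild-type replicates 1 to 3. The crh-1 gene itself had 19.8 ± 3.53 CPM in knockout and 21.1 ± 2.63 CPM in wild type (SD, n = 3 each). This count pools linear and circular transcripts and is no check of the genotype labels.

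Markers of both muscles were present in all 6 libraries. The body wall markers unc-54, myo-3, pat-10, mup-2 and unc-27 each had at least 30.2 CPM, where CPM is the gene's count scaled by library size. The pharyngeal markers were lower, with tnt-4 at 0.932 to 2.89 CPM and myo-1 at 6.99 to 36.4 CPM.

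Levels were compared between genes per kilobase of annotated exon (CPM per kb), averaged over the 6 libraries. They spanned a wide range, from 946 CPM per kb for pat-10, the body wall troponin C, to 1.12 CPM per kb for ttn-1, the worm's titin. The regulatory myosin light chain mlc-2 stood next to pat-10 at 849 CPM per kb. In pat-10 the single libraries had 1275, 1254 and 635 CPM per kb in knockout, against 843, 718 and 949 CPM per kb in wild type. In mlc-2 they had 1121, 1232 and 564 CPM per kb in knockout, against 742, 571 and 865 CPM per kb in wild type. These 2 genes overlapped each other, and each of their libraries lay above every library of the other 44. The next genes were act-2 at 330 CPM per kb, the calponin gene cpn-3 at 263 CPM per kb and mlc-1 at 201 CPM per kb, whose libraries overlapped.

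The lowest mean levels were those of ttn-1 and of pharyngeal isoforms. Next above ttn-1 came the pharyngeal troponin T gene tnt-4 at 1.22 CPM per kb and the pharyngeal myosin genes myo-2 at 1.82 and myo-1 at 2.67 CPM per kb. This order did not hold in each library. In replicate 2 of knockout and wild type, ttn-1 had 3.16 and 2.40 CPM per kb, above tnt-4 at 2.05 and 2.16. Not all pharyngeal isoforms were low, since tni-4 had 17.2 CPM per kb. The attachment genes ran from 3.31 CPM per kb for unc-96, an M-line protein gene, to 30.9 CPM per kb for pat-3, the beta integrin gene. A level per kb depends on the exon model, and reads that map to several places were left out, so levels of the near-identical actin genes and of mlc-1 and mlc-2 are uncertain.

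**Figure D1:**
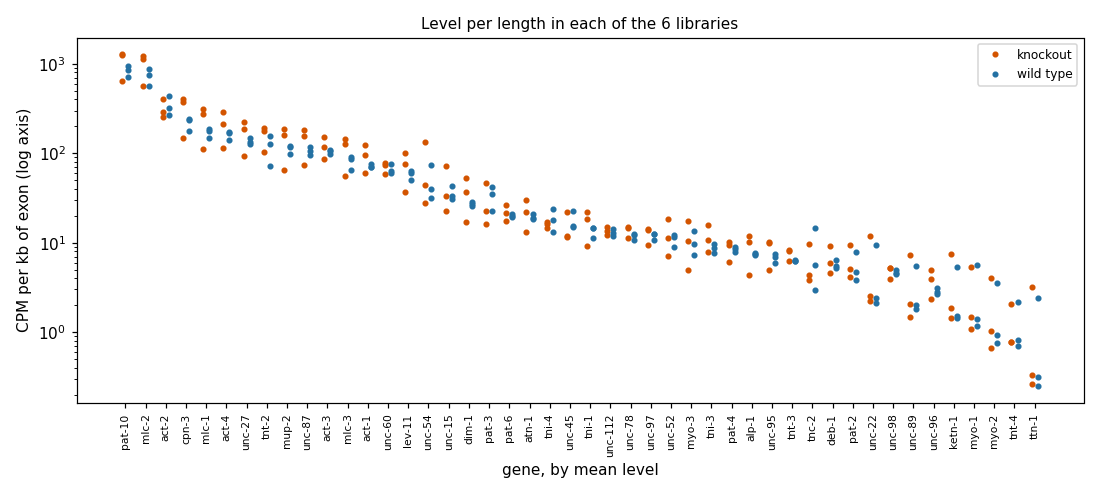
Level of each of the 46 genes in CPM per kb of exon (log axis), ordered by the mean over 6 libraries, with 1 point per library, knockout to the left of wild type. The genes run from pat-10 at a mean of 946 to ttn-1 at 1.12 CPM per kb, and in most genes the knockout points are spread more widely than the wild-type points.

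The comparison the series was designed for set knockout against wild type, and none of the 46 genes passed it. With edgeR's quasi-likelihood test, 0 of 46 genes had an adjusted p under 0.05, where the same test called 0% of all genes tested. At an unadjusted p under 0.05 edgeR again gave 0 of 46, against 0.982% of all genes (0.404% with knockout higher and 0.578% with knockout lower). DESeq2 called 0 of the 45 genes for which it gave an adjusted p, against 0.186% of the 16622 genes given one. At an unadjusted p under 0.05 DESeq2 had 0, against 1.27% of the 24803 genes given a p. It gave no adjusted p for ttn-1. The edgeR adjusted p was 0.996 or more for each of the 46.

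The estimates themselves were mostly small and mostly positive. The log2 fold change, knockout over wild type, was positive in 39 of the 46 genes and negative in 7, with a median of 0.24, where 52.3% of all genes were positive and the median of all genes was 0.02. The values ran from -0.37 for tnc-2, the pharyngeal troponin C, to 0.51 for cpn-3. The negative ones were tnc-2, pat-3, unc-45, tni-4, act-2, myo-1 and tnt-4. In none of the 46 did all knockout libraries lie on one side of all wild-type libraries, where 1.72% of all genes had such separation with knockout higher and 1.56% with knockout lower. The median changed with the libraries used. It was 0.57 without knockout replicate 3 and -0.00 without knockout replicate 2. The direction also depended on scaling. On library totals alone, 14 estimates were positive and 32 negative, with a median of -0.16 where that of all genes was -0.21.

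The precision differed between genes. In 15 of the 46 the 95% interval of the fold lay inside the range 0.5 to 2, so a larger change than that fell outside the interval for those genes. The widest interval was that of ttn-1, whose lowest and highest bounds were 0.226 and 7.08. These intervals follow from the spread between libraries, not from counting error.

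**Figure D2:**
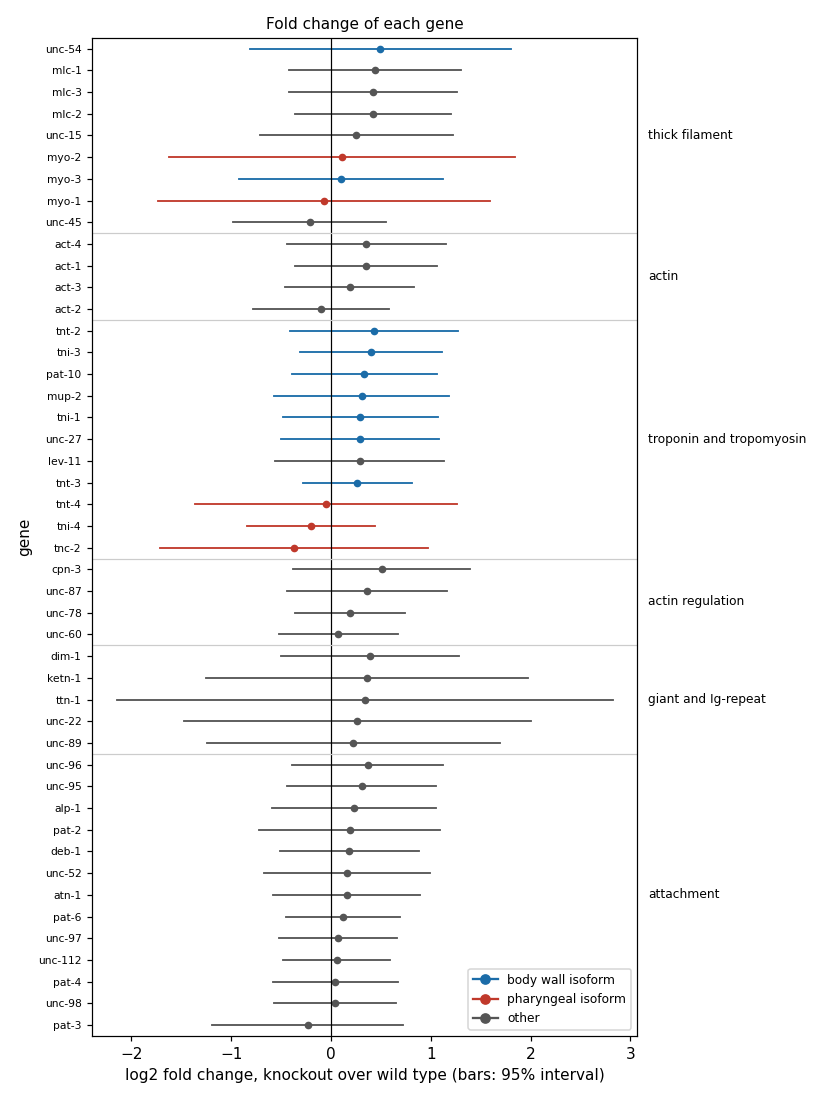
Log2 fold change of each gene, knockout over wild type, from the edgeR fit, with bars for the 95% interval and genes grouped by role. All 46 intervals include 0, the 9 body wall isoforms (blue) have positive estimates and 4 of the 5 pharyngeal isoforms (red) have negative ones.

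The spread was larger among knockout libraries. On the scale log2(CPM + 1), the SD over the 3 libraries was larger in knockout in 41 of the 46 genes, with a median SD of 0.61 in knockout and 0.19 in wild type. Over all genes tested, 78.7% had the larger SD in knockout, and the median SDs were 0.39 in knockout and 0.23 in wild type. Knockout replicate 2 was the highest of the 6 libraries in 34 of the 46 genes, and knockout replicate 3 the lowest in 29. Among all genes tested, knockout replicate 2 was the highest in 24.8% and knockout replicate 3 the lowest in 25.6%. These orders hold for TMM-scaled CPM, where the factor of knockout replicate 2 was 0.626, against 1.06 to 1.13 in the other libraries. A factor under 1 raises CPM, so on library totals alone that library would stand lower against the others in every gene. How often it would then be the highest was not counted. The mean deviation of the 46 genes from their own means, in log2(CPM + 1), was 0.02, 0.63 and -0.45 in knockout replicates 1 to 3, against -0.19, 0.14 and -0.15 in wild-type replicates 1 to 3.

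**Figure D3:**
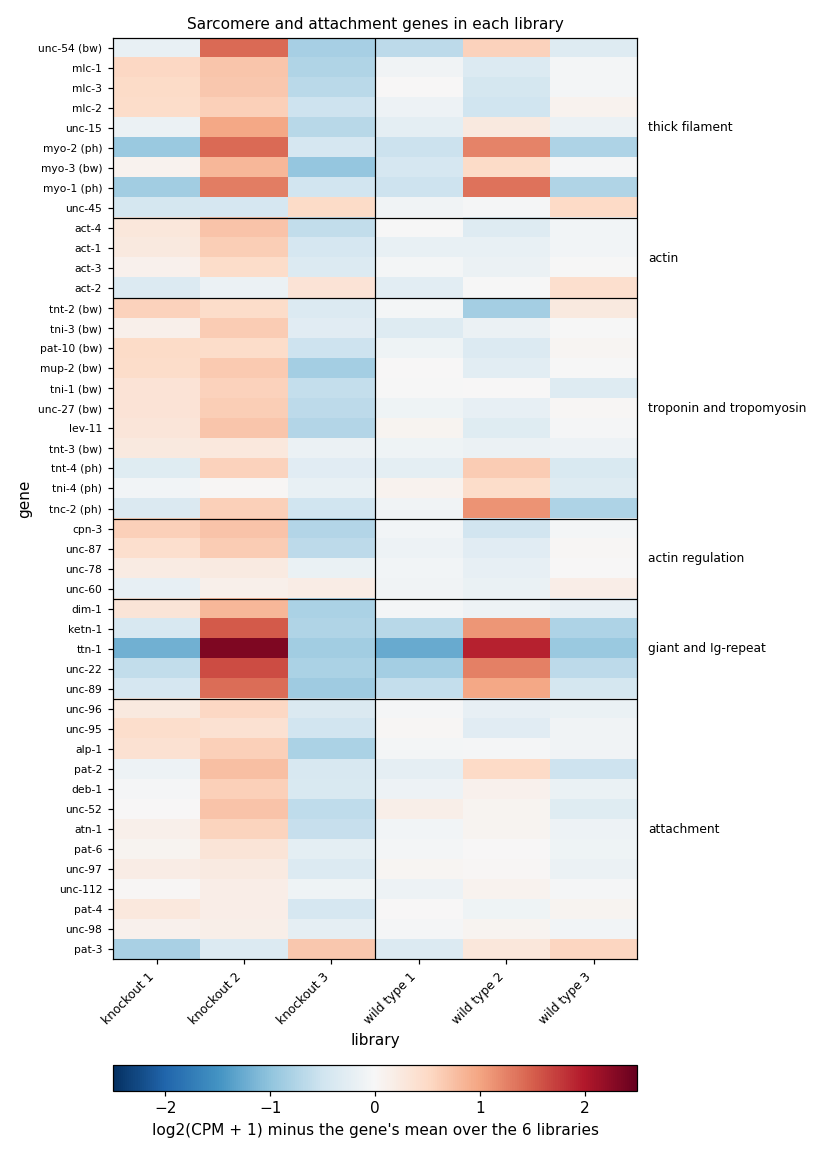
Level of each gene in each library as log2(CPM + 1), centred on the mean of that gene across all 6, knockout left of wild type, with body wall (bw) and pharyngeal (ph) isoforms marked. Knockout replicate 2 is the highest library in 34 of 46 genes and knockout replicate 3 the lowest in 29. In unc-45, act-2, pat-3 and unc-60 knockout replicate 3 is above knockout replicate 2.

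The thick filament genes comprise the myosin heavy and light chains, paramyosin and a myosin chaperone. Of these 9 genes, 0 passed the test, 7 had positive and 2 negative estimates, and the median log2 fold change was 0.26. Without knockout replicate 2 there were 3 positive and 6 negative estimates and a median of -0.33, and without knockout replicate 3 the median was 0.58. The main heavy chain of body wall thick filaments is unc-54 (WBGene00006789; WBcel235 chromosome I, 14855899 to 14863540, minus strand, 9 exon intervals in the count table). It had 273.7, 835 and 175.1 CPM in knockout, against 197.3, 464 and 249.4 CPM in wild type. Replicate 2 was the highest library in both genotypes, and the groups overlapped. The log2 fold change was 0.50 (SE 0.57; edgeR unadjusted p = 0.411), with a 95% interval of the fold from 0.57 to 3.48. Without knockout replicate 2 it was -0.41.

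The second body wall heavy chain, myo-3 (WBGene00003515; V, 12226816 to 12234343, minus strand), occupies the middle of the thick filament. It had 63.8, 106 and 30.2 CPM in knockout, against 44.6, 83.5 and 58.6 CPM in wild type. The log2 fold change was 0.10 (SE 0.45; edgeR unadjusted p = 0.826). The wild-type libraries lay inside the span of the knockout libraries.

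The heavy chains of the pharynx are myo-1 (WBGene00002348; I, 7258921 to 7267079, minus strand) and myo-2 (WBGene00003514; X, 12468061 to 12475341, plus strand). myo-1 had 6.99, 34.5 and 9.48 CPM in knockout, against 9.17, 36.4 and 7.67 CPM in wild type. myo-2 had 4.19, 25.3 and 6.46 CPM in knockout, against 5.88, 22.5 and 4.78 CPM in wild type. In both genes and both genotypes, replicate 2 was well above the other libraries. The log2 fold changes were -0.07 (SE 0.73; edgeR unadjusted p = 0.929) for myo-1 and 0.11 (SE 0.76; edgeR unadjusted p = 0.884) for myo-2.

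As shares of the summed heavy chain level per kb, unc-54 made up 78.2%, 83.3% and 79.0% in knockout, against 76.5%, 76.4% and 77.5% in wild type. Each knockout library was above each wild-type library, and the means were 80.2% ± 2.74 in knockout and 76.8% ± 0.60 in wild type (SD, n = 3 each). With 3 libraries a side an exact two-sided permutation test cannot go below p = 0.1. Shares were computed for every gene of several families, and only this one did not overlap between genotypes. Knockout replicates 1 and 3 lay close to wild-type replicate 3, and knockout replicate 2 was furthest away. The share of myo-3 was 18.7%, 10.9% and 13.98% in knockout, against 17.8%, 14.1% and 18.7% in wild type, and these overlapped. The pharyngeal chains together made up 3.11%, 5.81% and 7.004% in knockout, against 5.68%, 9.44% and 3.77% in wild type, again with overlap.

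The light chains, which bind the neck of each myosin head, had some of the smallest p values of the 46 genes. mlc-1 (WBGene00003369; X, 17459160 to 17460767, plus strand) had 326, 369 and 134 CPM in knockout, against 213, 178 and 220 CPM in wild type. mlc-2 (WBGene00003370; X, 17455779 to 17456586, minus strand) had 733, 806 and 369 CPM in knockout, against 485, 373 and 566 CPM in wild type. The essential light chain mlc-3 (WBGene00003371; III, 5565025 to 5567384, plus strand) had 274, 312 and 122 CPM in knockout, against 197, 143 and 189 CPM in wild type. In all 3 genes knockout replicates 1 and 2 were above every wild-type library and knockout replicate 3 was below every one. The log2 fold changes were 0.44 (SE 0.38; edgeR unadjusted p = 0.274) for mlc-1, 0.42 (SE 0.34; edgeR unadjusted p = 0.251) for mlc-2 and 0.42 (SE 0.37; edgeR unadjusted p = 0.285) for mlc-3.

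Paramyosin, encoded by unc-15, forms the core of the thick filament. It had 114, 248 and 77.8 CPM in knockout, against 106, 149 and 114 CPM in wild type, with a log2 fold change of 0.26 (SE 0.42). The chaperone gene unc-45, whose product folds myosin heads, ran differently. It had 39.8, 40.4 and 75.7 CPM in knockout, against 51.0, 53.1 and 76.6 CPM in wild type, so that replicate 3 was the highest library in both genotypes. Its log2 fold change was -0.21 (SE 0.34).

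Among the 4 actins, 0 passed the test and 3 estimates were positive, with a median log2 fold change of 0.27, which was 0.04 without knockout replicate 2 and 0.49 without knockout replicate 3. act-1 (WBGene00000063; V, 11079167 to 11082497, plus strand), a muscle actin, had 139, 179 and 87.1 CPM in knockout, against 102.7, 102.5 and 112.1 CPM in wild type. Its log2 fold change was 0.35 (SE 0.31; edgeR unadjusted p = 0.290). act-2 (WBGene00000064; V, 11076737 to 11078168, minus strand), its neighbour, is known to contribute also to the cytoplasmic actin of the embryo. It had 341, 389 and 546 CPM in knockout, against 357, 431 and 577 CPM in wild type, with a log2 fold change of -0.10 (SE 0.30; edgeR unadjusted p = 0.750). Replicate 3 was the highest library in both genotypes for act-2, while in act-1 knockout replicate 3 was the lowest of the 6.

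As shares of the summed level per kb of the 4 actins, act-2 took 37.4%, 34.1% and 61.1% in knockout, against 43.3%, 51.0% and 55.1% in wild type. act-4, a muscle actin encoded on X, took 31.4%, 33.9% and 17.1% in knockout, against 28.2%, 22.3% and 21.4% in wild type. Both shares overlapped between the genotypes.

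The troponin and tropomyosin genes make the calcium switch on the thin filament. Of these 11, 0 passed the test, 8 had positive and 3 negative estimates, and the median log2 fold change was 0.29, which was 0.07 without knockout replicate 2 and 0.60 without knockout replicate 3. The 3 negative ones were the pharyngeal isoforms. pat-10 (WBGene00003934; I, 5018770 to 5020166, minus strand) had 979, 963 and 488 CPM in knockout, against 647, 551 and 729 CPM in wild type. Its log2 fold change was 0.33 (SE 0.32; edgeR unadjusted p = 0.324), and knockout replicates 1 and 2 were above every wild-type library and knockout replicate 3 below. The pharyngeal troponin C gene tnc-2 had 3.49, 7.83 and 3.10 CPM in knockout, against 4.49, 11.6 and 2.40 CPM in wild type, with a log2 fold change of -0.37 (SE 0.59).

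Troponin I holds the switch closed at low calcium, and troponin T ties the complex to tropomyosin. The troponin I gene tni-3 (WBGene00006585; V, 16833639 to 16835144, minus strand) had 10.4, 15.3 and 7.62 CPM in knockout, against 7.40, 8.47 and 9.37 CPM in wild type. The log2 fold change was 0.40 (SE 0.31; edgeR unadjusted p = 0.234), and the groups overlapped through knockout replicate 3. The troponin T gene tnt-2 (WBGene00006587; X, 8721557 to 8723552, minus strand) had 335, 309 and 177 CPM in knockout, against 217, 124 and 267 CPM in wild type, with a log2 fold change of 0.43 (SE 0.37; edgeR unadjusted p = 0.272). In wild type tnt-2 was lowest in replicate 2, the library in which the heavy chains were highest. The remaining body wall troponins had log2 fold changes from 0.27 to 0.31, and tropomyosin, encoded by lev-11, had 0.29 (SE 0.37).

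Isoform shares within the troponins overlapped between genotypes. The major troponin I, unc-27, made up 80.4%, 80.3% and 74.3% of the summed troponin I level per kb in knockout, against 77.1%, 72.9% and 81.3% in wild type. The pharyngeal isoform tni-4 made up 6.96%, 6.19% and 11.9% in knockout, against 10.3%, 13.6% and 7.23% in wild type. For troponin T, tnt-2 and mup-2 together held nearly the whole level in each library, with tnt-2 at 53.0% ± 5.48 in knockout and 48.5% ± 7.62 in wild type (SD, n = 3 each). Pharyngeal tnc-2 made up 0.339%, 0.770% and 0.602% of troponin C in knockout, against 0.657%, 1.97% and 0.313% in wild type.

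The regulators of actin filaments bind, bundle, sever or recycle actin. Of the 4 genes, 0 passed the test and 4 had positive estimates, with a median log2 fold change of 0.28, which was 0.15 without knockout replicate 2 and 0.49 without knockout replicate 3. cpn-3 (WBGene00000779; I, 3987891 to 3988702, plus strand), a calponin, had the smallest p of the 46. It had 246.5, 270.0 and 98.6 CPM in knockout, against 156, 118 and 159 CPM in wild type, that is 205 ± 92.9 CPM in knockout and 144 ± 22.99 CPM in wild type (SD, n = 3 each). Its log2 fold change was 0.51 (SE 0.39; edgeR unadjusted p = 0.225), with a 95% interval of the fold from 0.77 to 2.62. Knockout replicates 1 and 2 were above every wild-type library and knockout replicate 3 was below all of them.

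The actin bundling gene unc-87 had the same order of libraries, with 371, 431 and 175 CPM in knockout, against 252, 227 and 281 CPM in wild type. unc-60, 1 gene for a muscle and a non-muscle form of cofilin that the count pools, did not. It had 114, 143 and 151 CPM in knockout, against 123, 117 and 147 CPM in wild type, with a log2 fold change of 0.08 (SE 0.26).

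The giant and immunoglobulin-repeat proteins run along or between the filaments. Of the 5, 0 passed the test and 5 had positive estimates, with a median log2 fold change of 0.34. Without knockout replicate 2 only 1 of the 5 was positive, dim-1, and the median was -0.80. Without wild-type replicate 2 it was 1.28, and without wild-type replicates 1 or 3 it was 0.01 and 0.05. Twitchin, encoded by unc-22 (IV, 11972708 to 12011007, minus strand), had 57.5, 275 and 50.8 CPM in knockout, against 48.9, 214 and 55.8 CPM in wild type. Obscurin, encoded by unc-89 (I, 4035744 to 4090961, plus strand), had 53.0, 188 and 37.9 CPM in knockout, against 46.6, 140.2 and 52.02 CPM in wild type. Titin, encoded by ttn-1 (V, 6120909 to 6202626, minus strand, 68 exon intervals), had 14.7, 179 and 18.6 CPM in knockout, against 14.1, 136 and 17.8 CPM in wild type. In these and in the kettin gene ketn-1, replicate 2 lay far above the other libraries in both genotypes, and the remaining libraries of the genotypes were close to each other.

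dim-1 (WBGene00001000; X, 8050470 to 8058220, minus strand), a shorter protein with immunoglobulin repeats, had the highest level per kb of the 5, at 31.4 CPM per kb. It had 91.5, 132 and 42.1 CPM in knockout, against 70.8, 67.4 and 63.6 CPM in wild type, and its log2 fold change was 0.40 (SE 0.39; edgeR unadjusted p = 0.340). In dim-1 the wild-type libraries were close together, at 67.3 ± 3.59 CPM, while the knockout libraries were at 88.5 ± 44.99 CPM (SD, n = 3 each).

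The 13 attachment genes encode integrins, their cytoplasmic partners, dense body and M-line proteins and perlecan. Of these, 0 passed the test, 12 had positive estimates and 1 a negative one, and the median log2 fold change was 0.16. Without knockout replicate 2 there were 4 positive and 9 negative estimates and a median of -0.01, and without knockout replicate 3 the median was 0.40. The integrin-linked complex of pat-4 (integrin-linked kinase), pat-6 (parvin), unc-97 (PINCH) and unc-112 (kindlin) had log2 fold changes from 0.04 to 0.12. unc-112 had 37.1, 41.3 and 33.7 CPM in knockout, against 33.2, 39.0 and 35.5 CPM in wild type, a narrow spread in both. Of the dense body genes, alpha-actinin, atn-1, had 0.16 (SE 0.32) and vinculin, deb-1, had 0.18 (SE 0.30). The ALP/Enigma gene alp-1 had 0.23 (SE 0.36) and the LIM protein gene unc-95 had 0.31 (SE 0.33). Perlecan, unc-52, had 130, 212 and 83.4 CPM in knockout, against 143, 135 and 104 CPM in wild type.

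Among proteins of the M-line, unc-96 (WBGene00006825; X, 611266 to 621290, minus strand) had 6.01, 7.59 and 3.64 CPM in knockout, against 4.84, 4.15 and 4.33 CPM in wild type. Its log2 fold change was 0.37 (SE 0.33; edgeR unadjusted p = 0.296), while its partner unc-98 had 0.04 (SE 0.27). The 2 integrin genes ran in different ways. The alpha integrin pat-2 had 20.1, 37.6 and 16.4 CPM in knockout, against 18.6, 31.4 and 15.1 CPM in wild type, highest in replicate 2 in both genotypes. pat-3 (WBGene00003930; III, 3908915 to 3914138, minus strand) encodes the worm's only beta integrin, which is also used outside muscle. It had 46.4, 64.9 and 131 CPM in knockout, against 64.6, 101 and 120.3 CPM in wild type, highest in replicate 3 in both genotypes, and its log2 fold change was -0.23 (SE 0.42; edgeR unadjusted p = 0.592).

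Libraries that carry the same replicate number deviated from their genotype's mean together, so each knockout library was also set against the wild-type library of its number. In pair 1 the knockout library was higher in 36 of the 46 genes, where 51.2% of all genes were higher. In pair 2 it was higher in 39, against 50.6% of all genes, and in pair 3 in 10, against 49.7%. The median differences, in log2 CPM, were 0.26, 0.50 and -0.31 for pairs 1 to 3. The direction thus turned in pair 3: 33 of the 46 genes were higher in pairs 1 and 2 and lower in pair 3, a pattern shown by 28.1% of all genes. Higher in all 3 pairs were 3 genes, ttn-1, ketn-1 and pat-2, where 11.2% of all genes were. Lower in all 3 were 2 genes, unc-45 and act-2, where 10.4% of all genes were. With the replicate number as a block, the median log2 fold change of the 46 was 0.16, the smallest edgeR adjusted p was 0.771, and 0 of 46 were called, where 0.00697% of all genes were. At an unadjusted p under 0.05 the block gave 0 of 46, where 4.77% of all genes had one.

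The body wall and pharyngeal isoforms went opposite ways across the pairs. The 9 body wall isoforms were higher in knockout in 9 of 9 cases in pair 1, in 9 of 9 in pair 2 and in 0 of 9 in pair 3, with median differences of 0.47, 0.82 and -0.58. The 5 pharyngeal isoforms were higher in knockout in 0 of 5 in pair 1, in 1 of 5 in pair 2 and in 5 of 5 in pair 3, with median differences of -0.36, -0.08 and 0.31. The one pharyngeal gene higher in pair 2 was myo-2, at 0.17. The body wall pattern was not particular to muscle. Of 11 intestinal markers, 11, 11 and 1 were higher in knockout in pairs 1 to 3, with median differences of 0.57, 0.82 and -0.61. Of 12 neuronal markers, 9, 11 and 3 were higher. Of 15 oocyte and germline markers, 1, 0 and 12 were higher, and of 9 epidermal markers 2, 5 and 6. Whether the isoform groups differ in their response was not tested, since genes of 1 library are not independent replicates.

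Levels by library show the same contrast on the scale of log2(CPM + 1) deviations. The body wall isoforms averaged 0.27, 0.66 and -0.58 in knockout replicates 1 to 3, against -0.20, -0.10 and -0.06 in wild-type replicates 1 to 3. The pharyngeal isoforms averaged -0.51, 0.78 and -0.37 in knockout, against -0.26, 0.96 and -0.60 in wild type. The body wall group differed between libraries mainly within knockout, and the pharyngeal group mainly between replicate 2 and the rest in both genotypes. Over all libraries the median log2 fold change was 0.31 for the body wall isoforms and -0.07 for the pharyngeal ones. The body wall value was 0.08 with knockout replicate 2 left out and 0.60 with knockout replicate 3 left out. The pharyngeal value was -0.92 with knockout replicate 2 left out and 0.65 with wild-type replicate 2 left out.

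**Figure D4:**
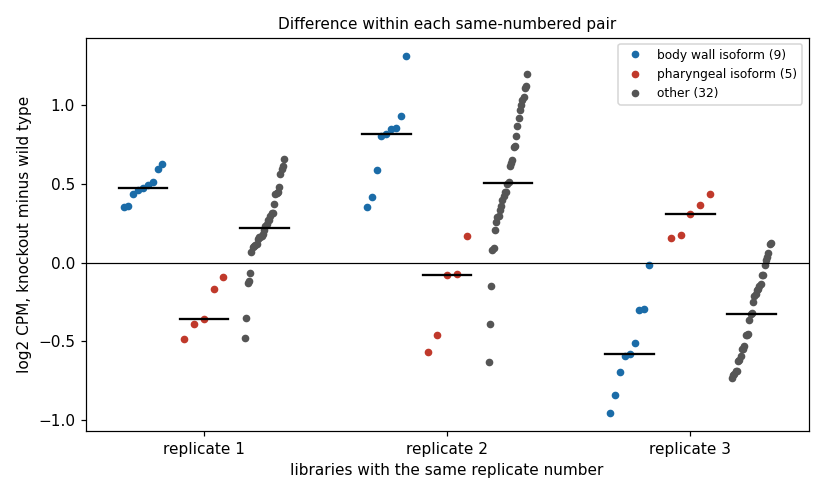
Difference in log2 CPM, knockout minus wild type, within each pair of libraries of the same replicate number, with 1 point per gene and a bar at the median of each group. The body wall isoforms lie above 0 in pairs 1 and 2 and below 0 in pair 3, and the pharyngeal isoforms lie below 0 in pair 1 and above 0 in pair 3.

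Several long members stood out in replicate 2, a view taken after the values had been seen. In ttn-1, with 56600 exonic bases, replicate 2 was 10.7 times the level of replicates 1 and 3 in knockout and 8.51 times in wild type, as the ratio of its CPM to the mean CPM of the other libraries of the genotype. In unc-22, with 22931 bases, the ratios were 5.08 in knockout and 4.08 in wild type. In unc-89, with 25808 bases, they were 4.14 in knockout and 2.84 in wild type. Length did not order the ratios throughout. unc-52, with 11609 bases, had 1.99 in knockout and 1.09 in wild type, while myo-1, with 6504 bases, had 4.18 in knockout and 4.32 in wild type. The short mlc-2, with 654 bases, had 1.46 in knockout and 0.711 in wild type.

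Of the 10 members over 5000 exonic bases, replicate 2 was above the mean of its genotype's other libraries in 10 in knockout and in 10 in wild type. The median differences were 2.0 in knockout and 1.66 in wild type, in log2(CPM + 1). Of the 36 shorter members, it was above in 33 in knockout and in 15 in wild type, with medians of 0.66 in knockout and -0.10 in wild type. Replicate 2 was the highest library of both genotypes in 20 of the 46 members, where 15.7% of all genes were. Among all genes tested over 5000 bases, 326 in number, the medians were -0.07 in knockout and 0.06 in wild type. In the 10 of these over 20000 bases, of which 3 are members, the medians were 0.97 in knockout and 0.73 in wild type. Across the 46 members, Spearman's correlation of this difference with exonic length was 0.51 in knockout and 0.54 in wild type, and across all genes -0.28 in knockout and -0.10 in wild type. These points share libraries and depth and are a description only.

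Some short genes also stood high in replicate 2. The pharyngeal troponin C gene tnc-2, with 805 exonic bases, had ratios of 2.38 in knockout and 3.38 in wild type, and tnt-4 had 2.63 in knockout and 2.84 in wild type. Pharyngeal tni-4 was nearer 1, at 1.12 in knockout and 1.51 in wild type. Knockout replicate 2 was also the library with most rRNA and with the largest share of mitochondrially encoded mRNA, 5.13% of protein-coding counts against 0.588% to 2.22% in the others, whereas wild-type replicate 2 had 34.1% rRNA and 1.81% mitochondrial mRNA, within the range of the others. The part of RNA quality, and of the low TMM factor of knockout replicate 2, in the levels of replicate 2 was not tested.

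**Figure D5:**
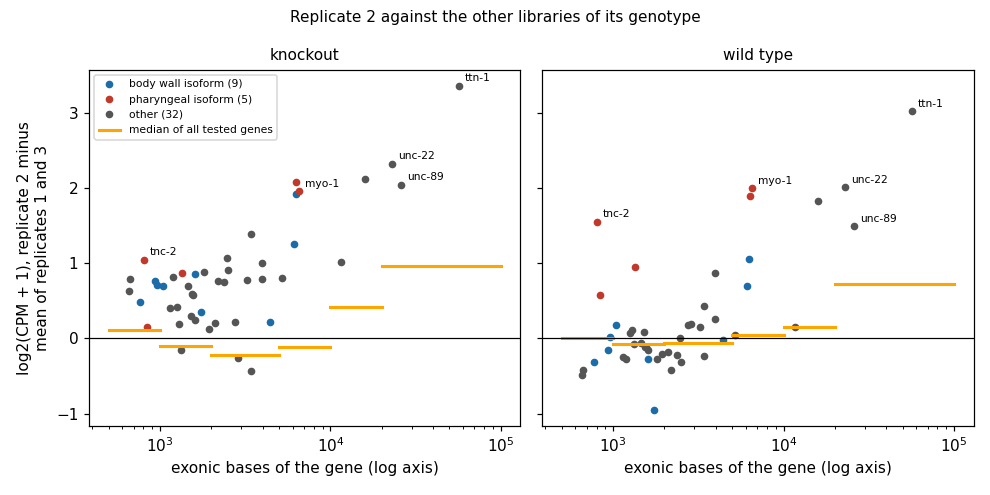
Difference between replicate 2 and the mean of replicates 1 and 3 in log2(CPM + 1) against exonic bases (log axis) for the 46 genes, knockout left and wild type right, with bars for the median of all tested genes by length. ttn-1 and unc-22 are the highest 2 of the 46 in both panels, unc-89 lies below ketn-1 and myo-2 in both, and the pharyngeal genes tnc-2 and myo-1 lie above the median of all genes of like length.

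Further genes of muscle were read from 4 lists. Of 25 other sarcomere and attachment genes, 0 passed the test, 20 had positive and 5 negative estimates, and the median log2 fold change was 0.11. Without knockout replicate 2 there were 15 positive and 10 negative estimates and a median of 0.04. With all libraries, the smallest p was that of the profilin gene pfn-3. It had 18.5, 22.1 and 8.82 CPM in knockout, against 10.8, 9.70 and 10.9 CPM in wild type (log2 fold change 0.66, SE 0.35). The thymosin beta gene tth-1, whose product binds actin monomers, had 13.1, 11.7 and 10.1 CPM in knockout, against 9.77, 7.23 and 10.1 CPM in wild type. Its knockout libraries all lay above its wild-type libraries, though replicate 3 of each genotype rounds to the same value. Such separation was seen in 1 of the 25 genes, where 1.72% of all genes had it with knockout higher.

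Of 25 genes of excitation and calcium handling, 0 passed the test, 22 had positive and 3 negative estimates, and the median was 0.16. Without knockout replicate 2 there were 11 positive and 14 negative estimates and a median of -0.03. lev-1, a subunit of the acetylcholine receptor of body wall muscle, had 1.97, 2.34 and 1.28 CPM in knockout, against 1.19, 1.15 and 1.07 CPM in wild type. Its log2 fold change was 0.70 (SE 0.37), from counts of 46 to 93 per library. Its groups did not overlap, as in 1 of the 25 genes, where 1.72% of all genes were so separated with knockout higher. The dystrophin complex had 4 positive and 4 negative estimates among 8 genes, with a median of -0.02. Of 7 muscle transcription factors 6 were tested, with 5 positive estimates, 1 negative one and a median of 0.12. None of either list passed the test.

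Other cell types in the whole worm were read through lists of their markers, and none of these genes passed the test. All 11 intestinal markers had positive estimates, with a median of 0.27. Their mean deviations were 0.51, 0.20 and -0.34 in knockout, against 0.04, -0.52 and 0.11 in wild type, and their summed levels ran from 2744 to 5558 CPM in knockout and from 2186 to 4021 CPM in wild type. All 15 oocyte and germline markers had negative estimates, with a median of -0.29 and deviations of -0.80, -0.67 and 0.81 in knockout, against -0.28, 0.25 and 0.69 in wild type. Their summed levels ran from 1754 to 5755 CPM in knockout and from 2325 to 5324 CPM in wild type. Without wild-type replicate 3 the estimates were 11 positive and 4 negative, and without knockout replicate 1 they were 7 positive and 8 negative. The germline list was thus highest in replicate 3 of both genotypes, the libraries in which unc-45, act-2, pat-3 and unc-60 were also highest. Knockout replicate 3 was the library in which most of the 46 genes were lowest.

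The neuronal markers had 10 positive and 2 negative estimates and a median of 0.24, with summed levels of 111.8 to 160.4 CPM in knockout and 124 to 136 CPM in wild type. Of 10 epidermal markers 9 were tested, with 4 positive and 5 negative estimates, and summed levels of 892 to 2137 CPM in knockout and 1207 to 1520 CPM in wild type. Of 12 sperm markers 10 were tested, with 10 negative estimates and a median of -0.76. With the replicate block 5 of these 10 had an edgeR unadjusted p under 0.05, as had 2 of the 15 oocyte and germline markers. Among all genes 4.77% had one. The summed levels of the sperm list were 8.22 to 19.7 CPM in knockout and 13.6 to 21.7 CPM in wild type. Of 10 markers of the pharyngeal gland and epithelium only 2 were tested, and 1 had a count of 0 in all libraries. The part of other tissues in the levels of the 46 genes was not tested.

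The p-values moved most with knockout replicate 3. Without it, edgeR gave 18 of the 46 genes an unadjusted p under 0.05, where 19.3% of all genes had one, and called 0 of 46 after adjustment, where it called 0% of all genes. DESeq2 without that library called 2 of the 46, cpn-3 at a log2 fold change of 0.81 (DESeq2 adjusted p = 0.033) and mlc-1 at 0.74 (DESeq2 adjusted p = 0.0345). In that fit it called 9.87% of the 8314 genes given an adjusted p. With both replicate 3 libraries left out, 17 of the 46 had an edgeR unadjusted p under 0.05, where 13% of all genes had one. Among the edgeR fits with a single library left out, the direction moved most without knockout replicate 2, with 23 estimates positive and 23 negative. With both replicate 2 libraries left out, again 23 estimates were positive and 23 negative, and the median was 0.00. DESeq2 without knockout replicate 2 had 16 positive and 30 negative. On library totals alone, with all libraries kept, edgeR had 14 positive and 32 negative, where the median of all genes was -0.21.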

How the data were processed

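Total RNA of whole worms was sequenced in 6 libraries, 3 per genotype, per the labels from 1 µg of RNA with a stranded kit that removes rRNA, after collection on a 30 µm mesh. The authors deposited a table of raw counts. Per the file headers, featureCounts 1.5.0 made these counts from read pairs in exons of each Ensembl gene (WBcel235), using strand setting 2. No multi-mapping or overlap option is in the recorded command, so read pairs with several positions or shared by genes are not included. The submitters' processing notes also name bcl2fastq 2.19, HISAT2 2.1.0 and DESeq2 1.26.0.

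Of 46748 genes, 46449 were named from Ensembl 115 of the same build. Counts were filtered with filterByExpr (minimum count 10, minimum total 15), scaled by TMM and tested with edgeR 4.0.16 (R 4.3.3), by robust quasi-likelihood without covariates, over all 14354 genes, with Benjamini-Hochberg adjustment and a threshold of 0.05. Standard errors were taken from the log2 fold change and the square root of F. Levels are CPM on TMM-scaled sizes, or log2(CPM + 1) minus the gene's mean. Among the members, only unc-22 shares exonic bases with another gene on its strand.

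The members, the 13 lists and the roles and tissues of the members were chosen with earlier results of these data known. Full statistics were given for the 8 members with the smallest p, the 4 myosin heavy chains and the highest member per kb of each role group, and up to 2 genes by smallest p were named from each list. No 2 libraries agreed within sampling noise, with a smallest chi-square per degree of freedom of 87.2. P-values set the difference between genotypes against the spread between libraries, which in the main fit includes differences between replicate numbers.

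Same-numbered libraries correlated across genes, after subtraction of the group means, with 0.78, 0.46 and 0.66, and other pairs with -0.65 to 0.16. The numbers were therefore taken to pair the samples, although the labels do not say what a number shares. The main edgeR fit was run on simulated counts with larger fold changes than those of the members and no pairing by number. That run is no check on changes as small as those estimated here. Alternatives were other scalings and filters, DESeq2 1.42.0, limma-voom (limma 3.58.1), legacy edgeR, estimation without robustness, the replicate block, removal of rRNA genes, restriction to protein-coding genes, and each library left out. DESeq2 without each library, and both libraries of a number left out, were added after the data had been seen.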

Additional observations from a re-analysis of the deposited data

How the results depend on the processing

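On library totals alone, 5 genes were called, and the medians of the 46 genes and of the attachment genes were -0.16 and -0.19, where the median of all genes was -0.21, so that the members lay 0.05 above it. DESeq2 called 31 genes in all and the replicate block 1; the block changed no member's call. Leaving out each library in turn gave 0 to 0 genes called by edgeR and, by DESeq2, counts of 30, 20 and 821 without knockout replicates 1, 2 and 3 and of 38, 2 and 24 without wild-type replicates 1, 2 and 3. Members called ran from 0 to 2, and 2 only by DESeq2 without knockout replicate 3. Over these fits and those without both libraries of a number, the median of the members ran from -0.04 to 0.57, of the body wall isoforms from 0.01 to 0.71, of the attachment genes from -0.05 to 0.40 and of the pharyngeal isoforms from -0.92, by either tool without knockout replicate 2, to 0.65. Of the 46 members, 14 kept the sign of their fold change under the 26 alternatives other than library totals and 32 did not. Without knockout replicate 2, 16 of the 32 turned in the edgeR fit, and the DESeq2 fit had 16 positive and 30 negative estimates. On library totals 25 of the 46 turned. Of 783 values for single members and other lists under the alternatives, 46 list medians moved by more than the spread between replicates. A further 2, both of members, passed the threshold, and 735 did neither. The value of a single member was judged by its call alone, and no member was called in the main fit. A change of sign therefore did not count as a move, and the 735 are no measure of stability. The cause of the moves was not tested. The smallest count of a member in a library was 40, and no fit varied depth.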

Other observations

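Genes on the epidermal and matrix side of muscle attachment were read from 3 further lists, and none of them passed the edgeR test. Fibrous organelles carry the pull of body wall muscle across the epidermis to the cuticle. All 8 of their genes had positive log2 fold changes, knockout over wild type, with a median of 0.30, and 6 of 8 did without knockout replicate 2. The ankyrin-repeat gene vab-19 had 9.15, 11.2 and 6.40 CPM in knockout, against 6.81, 5.51 and 6.64 CPM in wild type, and the intermediate filament gene ifa-3 had 0.424, 0.738 and 1.29 CPM in knockout, against 0.398, 0.587 and 0.303 CPM in wild type. Of 10 basement membrane genes 8 had positive estimates, with a median of 0.13, but 1 of 10 did without knockout replicate 2. Among them ost-1, the worm's SPARC, had 170, 207 and 83.9 CPM in knockout, against 118, 117 and 113 CPM in wild type, with knockout replicate 3 again below every wild-type library.

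The actomyosin of other cells ran the other way. Of 11 such genes 9 had negative estimates, with a median of -0.15, but 2 of 11 did without wild-type replicate 3. The non-muscle myosin gene nmy-2, used in cell division and in the early embryo, had 326, 324 and 916 CPM in knockout, against 397, 652 and 888 CPM in wild type, highest in replicate 3 of both genotypes. The positive exceptions included act-5, the actin of intestinal microvilli, with 686, 675 and 303 CPM in knockout, against 448, 293 and 464 CPM in wild type.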
